A study of Mus musculus with 5 samples.

Results

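The libraries labelled WT_K118R and WT were made from Ba/F3, a pro-B line of the mouse that needs interleukin-3 for growth unless an introduced gene replaces that signal. The cells had been infected with lentivirus carrying the named construct. By its name WT_K118R differs from WT in K118R, the exchange of a lysine for arginine. The study held 5 libraries in all, 1 each for WT_K118R, WT, S_PXT1_K118R, S_PXT1 and the vector PMSCV, and its title concerns an oncofusion of childhood leukaemia and the stability of mRNA. The labels do not spell out S or WT, give no clone and no time after infection, and name no gene for the WT construct, so its expression and the substitution itself could not be checked in the counts. Nothing says that any group had a second culture. No difference below therefore has a replicate check, and no p-value is given.

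Genes were kept where WT_K118R and WT averaged 20 counts or more, which held for 1787 of the 50867 in the table. They held 88.4% of the counts in WT_K118R and 88.1% in WT. Values are counts scaled to the library size by the trimmed mean of M values (CPM). A gene is called higher or lower at a 2-fold ratio of WT_K118R over WT. Most folds carry the exact 95% interval of a ratio of 2 counts, which covers counting error only. Without molecular identifiers, reads cannot be taken as independent molecules. A fold against 0 counts is taken against a floor of 3 counts, and its interval has a lower limit only. Just inside the limit of 20 counts, BTK, AKAP8L, VMP1, NDST1 and ADGRL1 had 11, 17, 20, 16 and 26 counts with WT_K118R, against 29, 23, 20, 24 and 14 with WT. Just outside it, ANAPC7, TLE1P1 and RPS3AP6 had 16, 21 and 17 counts with WT_K118R, against 23, 18 and 22 with WT.

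A lysine to arginine exchange keeps the positive charge of the side chain but not its chemistry. It is used in the laboratory to abolish steps that need the lysine itself, such as the anchoring of ATP in a protein kinase or the attachment of ubiquitin and acetyl groups. In Ba/F3 cells the interleukin-3 receptor signals through JAK kinases and STAT5. Blood cell identity rests on transcription factors such as PU.1, which SPI1 encodes and which is dosed differently in B cells and myeloid cells.

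WT_K118R and WT were near equal in depth. They held 347661 and 351693 counts, and 11504 and 11712 genes with at least 1 count. The S_PXT1_K118R and S_PXT1 libraries stood apart, with 7044 and 7393 genes, against 11492 in PMSCV. The table names human gene models although the labels give mouse cells, so each gene is set against itself in another library, never against another gene. Of 28 B cell and blood surface genes, 15 had a count in WT_K118R and 13 in WT. CD79A, CD79B and the surrogate light chain genes VPREB1 and IGLL1, which define B lineage cells, were at 0 in both, and so was IL3RA. The labelled cell type was therefore not visible in its defining markers on these models.

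Most genes had like levels with and without the substitution. Of the 1787 genes, 53 were at least 2-fold higher with WT_K118R, which is 2.97%, and 56 were lower, 3.13%. Together these are 6.1% of the genes. The interval of the ratio excluded 1 for all 109 of them, which the filter and the 2-fold rule nearly fix in advance. USP24, at 28 counts with WT_K118R and 14 with WT, still had a lower limit of 1.03. The median log2 ratio was 0.00, and the middle of the distribution between its quartiles ran from -0.20 to 0.18. With a mean of 20 to 50 counts, 9.28% of genes passed 2-fold. Of those above 300 counts 0.980% did. The 571 genes averaging 100 counts or more included 6 higher and 10 lower ones.

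The called genes fall apart into a set also counted with S_PXT1 and a set that was not. Of the 1787 genes, 58 had at most 2 counts in each of S_PXT1_K118R and S_PXT1, and 24 of these, 41.4%, differed by 2-fold, 10 higher and 14 lower. Of the 1729 others 85 differed, or 4.92%, 43 higher and 42 lower. The shares are not a test, as the filter averages WT_K118R and WT themselves. A gene near 0 in one of them enters only through the other, and so passes 2-fold. KRT4, with 0 counts in WT_K118R and 262 in WT, is an example. The shares were also not matched on count level. Genes are described first by function, where FOXO3 and USP24 are absent with S_PXT1, and then by tissue, where some stromal, epithelial and antigen presentation genes were also counted with S_PXT1.

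**Figure D1:**
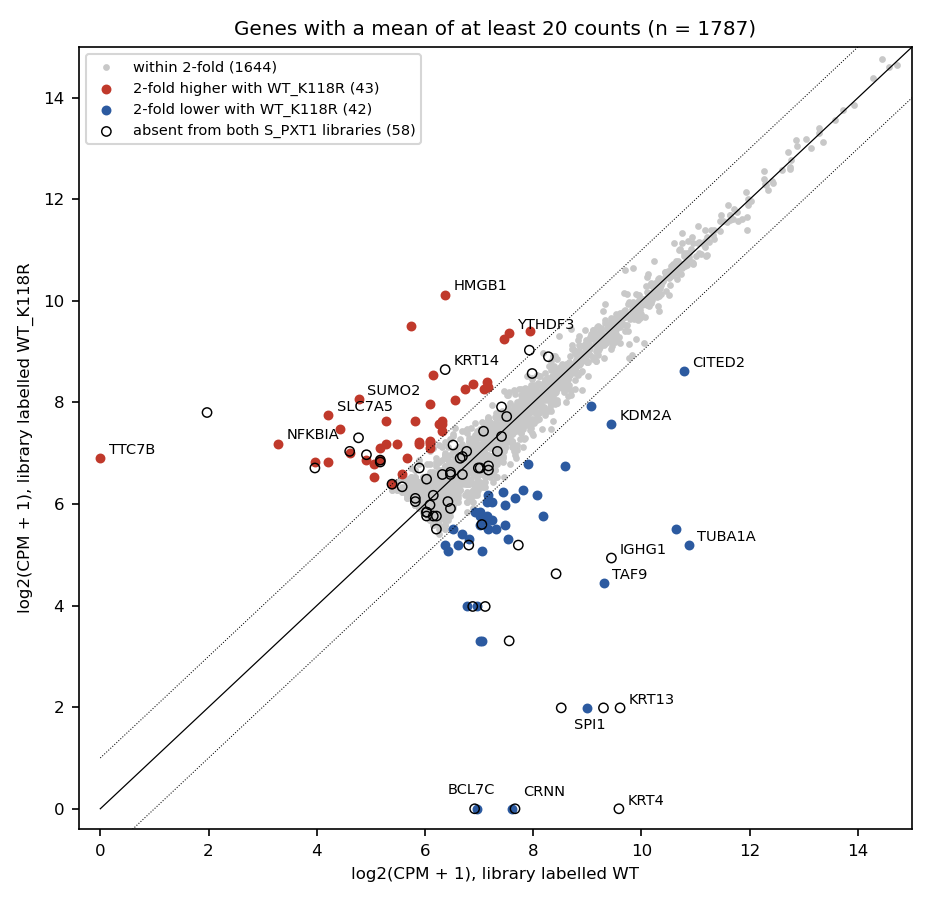
Each point is 1 of the 1787 genes, with its level in WT on the horizontal axis and in WT_K118R on the vertical axis, both as log2(CPM + 1). The dotted lines mark 2-fold, open circles the 58 genes absent from both S_PXT1 libraries, and CITED2, TUBA1A, TAF9 and SPI1 lie far below the diagonal, with HMGB1 far above it.

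Among transcription factors and coregulators, SPI1, FOXO3 and CITED2 were lower with WT_K118R. SPI1 (ENSG00000066336, at 47354860 to 47378576 on chromosome 11 by the table, with its genome build not given in the sources used here) encodes PU.1, the ETS factor of myeloid and B cell development. It had 1 count with WT_K118R and 173 with WT, and 128, 139 and 113 with S_PXT1_K118R, S_PXT1 and PMSCV. WT_K118R alone was nearly without it, 171-fold lower than WT (30.2 to 6781). CITED2, a coregulator that binds CBP and p300, had 133 counts with WT_K118R and 602 with WT, 4.47-fold lower (3.70 to 5.43). CITED2 stood at 394 CPM in WT_K118R and 1761 CPM in WT, and at 1584, 5033 and 1600 CPM in S_PXT1_K118R, S_PXT1 and PMSCV. FOXO3, a forkhead factor of the PI3K pathway, had 5 counts with WT_K118R and 47 with WT, 9.28-fold lower (3.71 to 29.9). It had 2 counts in each S_PXT1 library and 30 with PMSCV, and so belongs to the 58 genes absent with S_PXT1.

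Other blood factors stayed close. Of 14 blood progenitor and lymphoid transcription factors, SPI1 and FOXO3 were lower and 0 higher, beside 6.1% past 2-fold over all genes. The median log2 ratio of the 14 was -0.01, beside 0.00 over all genes. GATA2, a factor of blood progenitors, had 123 counts with WT_K118R and 128 with WT, and its partner LDB1 had 101 with WT_K118R and 83 with WT. Of 20 CBP/p300 partners and coregulators CITED2 was lower and HDAC8, a deacetylase, was higher, beside the same 6.1%. HDAC8 had 46 counts with WT_K118R and 23 with WT. The list median was -0.12. HDAC2 had 170 counts with WT_K118R and 99 with WT, 1.74-fold higher (1.35 to 2.25).

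The general transcription machinery differed mainly at TAF9. TAF9, a histone-fold subunit of TFIID and SAGA, had 7 counts with WT_K118R and 216 with WT, and 168, 180 and 169 with S_PXT1_K118R, S_PXT1 and PMSCV. It was 30.4-fold lower than with WT (14.5 to 76.6), and WT_K118R lay below all other libraries. TAF9 shares its locus on chromosome 5 with AK6, which had 5 counts with WT_K118R and 1 with WT, and both summed to 12 with WT_K118R and 217 with WT, 17.8-fold lower. SUPT6H, a histone chaperone of elongating polymerase, had 17 counts with WT_K118R and 51 with WT. The 25 genes of RNA polymerase II, its initiation factors and Mediator had 2 lower and 0 higher members, a share near the 6.1% of all genes. Their median log2 ratio was -0.04. SP1, a factor of GC-rich promoters singled out once its values were known, had 17 counts with WT_K118R and 48 with WT. SP3, its paralog, had 525 with WT_K118R and 282 with WT and was 1.89-fold higher (1.63 to 2.19). YY1, a factor that bridges enhancers and promoters, had 544 with WT_K118R and 312 with WT and was 1.77-fold higher (1.53 to 2.04).

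Chromatin proteins differed in both directions. HMGB1, a DNA-bending protein of chromatin, had 376 counts with WT_K118R and 28 with WT, 13.6-fold higher (9.26 to 20.8), and 22, 21 and 71 with S_PXT1_K118R, S_PXT1 and PMSCV. WT_K118R alone was high. Summed with the pseudogene models named after it, they held 585 counts with WT_K118R and 250 with WT, a 2.37-fold difference (2.04 to 2.76). Its paralog HMGB2 had 67 counts with WT_K118R and 19 with WT, 3.57-fold higher (2.12 to 6.30). Among the 6 high mobility group genes 2 were higher and 0 lower, beside 6.1% past 2-fold over all genes. The list median was 0.54 on the log2 scale. CBX1, which reads methylated histone H3 in heterochromatin, had 228 counts with WT_K118R and 84 with WT, 2.75-fold higher (2.13 to 3.58).

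The 3 lower genes of the histone methylation list were KDM2A, SETD1A and KMT2C. KDM2A, a demethylase of histone H3 lysine 36 that binds CpG islands, had 64 counts with WT_K118R and 237 with WT, 3.65-fold lower (2.76 to 4.89). The other 3 libraries held 167 to 197 counts of KDM2A, so WT_K118R alone was low. SETD1A, a methyltransferase of histone H3 lysine 4, had 3 counts with WT_K118R and 45 with WT, but PMSCV and S_PXT1_K118R also held 1 each, while S_PXT1 held 26. KMT2C, of the same enzyme family, had 19 counts with WT_K118R and 44 with WT. Of the 29 heterochromatin, Polycomb and histone methylation genes, CBX1 was the 1 higher gene beside the 3 lower ones, against 6.1% past 2-fold over all genes. The list median was -0.10. At a mean of at least 50 counts that median was 0.12. None of the 28 SWI/SNF and other remodeller genes on the list passed 2-fold, beside 6.1% of all genes. BCL7C, a SWI/SNF subunit outside that list, had 0 counts with WT_K118R and 42 with WT, 13.8-fold lower against the floor (10.7 or more). The other 3 libraries held 12 to 36. Outside the lists, and named after their values were seen, NSD3 had 18 counts with WT_K118R and 48 with WT, BAZ2A 37 with WT_K118R and 82 with WT, and PHF20 24 with WT_K118R and 49 with WT.

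**Figure D2:**
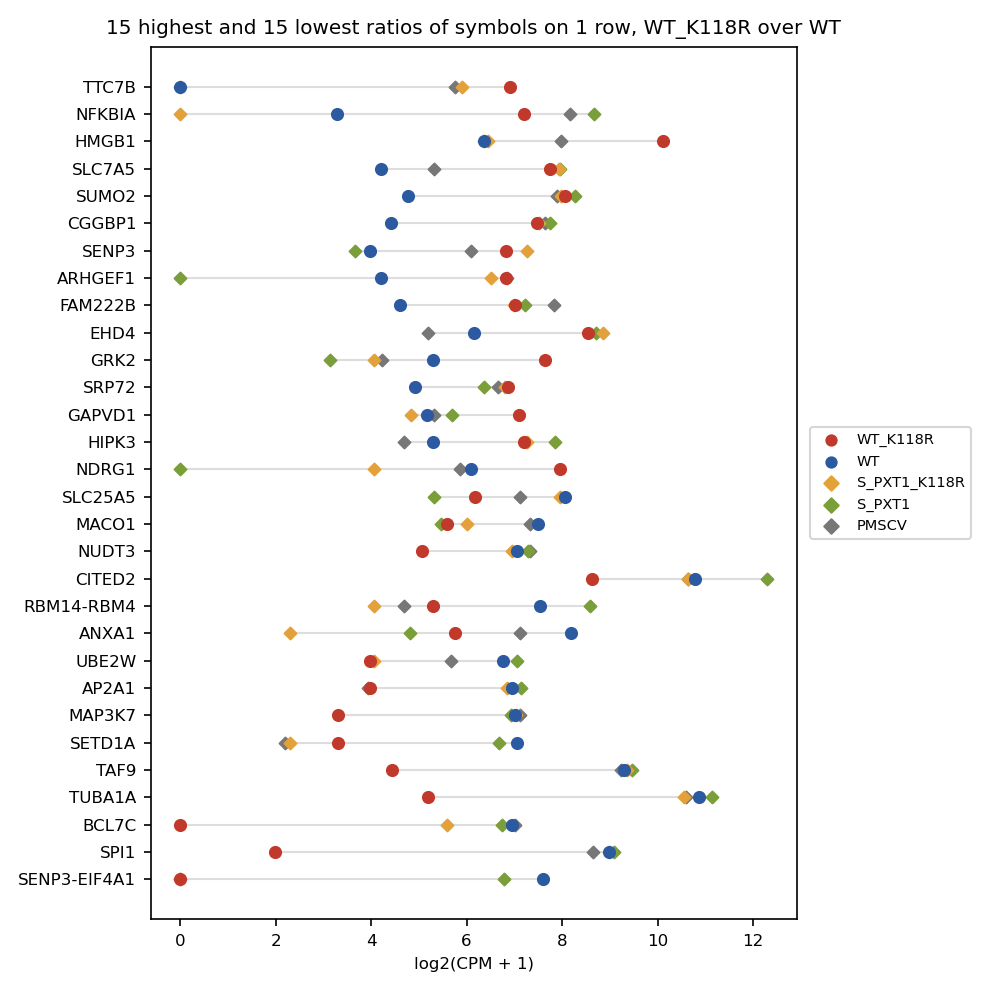
The 15 highest and 15 lowest ratios among genes that were not absent from both S_PXT1 libraries are shown, MATR3 with its 2 rows left out, from top to bottom, with 1 point per library on a log2(CPM + 1) axis. For SPI1, TAF9, TUBA1A, MAP3K7 and BCL7C the WT_K118R point lies apart on the left, and for SUMO2, CGGBP1 and FAM222B the WT point does.

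RNA-binding proteins and mRNA regulators differed by single genes. YTHDF3, a cytoplasmic reader of N6-methyladenosine, had 222 counts with WT_K118R and 64 with WT, 3.52-fold higher (2.65 to 4.72). The other 3 libraries held 168 to 216 counts, so WT was the library that was low. None of the other 8 genes for readers, writers and erasers of the mark passed 2-fold, beside 6.1% of all genes. KHSRP, which promotes decay of mRNAs with AU-rich elements, had 37 counts with WT_K118R and 11 with WT, 3.41-fold higher (1.70 to 7.41). ZFP36L2, another decay factor for such mRNAs, had 82 with WT_K118R and 184 with WT, 2.21-fold lower (1.70 to 2.91), and WT was high against 63 to 66 counts elsewhere. CNOT9, a subunit of the CCR4-NOT deadenylase, had 114 counts with WT_K118R and 48 with WT, 2.41-fold higher (1.70 to 3.45). CNOT6L, a catalytic subunit of the same complex, had 165 with WT_K118R and 310 with WT, 1.85-fold lower (1.53 to 2.25). Of 40 mRNA stability regulators 2 were higher and 1 lower, a share near the 6.1% of all genes. Their median log2 ratio was -0.05. PABPC1, the main poly(A)-binding protein, was named after its values were seen. It had 9339 counts with WT_K118R and 7673 with WT, 1.23-fold higher (1.20 to 1.27).

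Among splicing factors, SRSF7 and SNW1 passed 2-fold, a share of their lists near the 6.1% of all genes. SRSF7, an SR protein, had 36 counts with WT_K118R and 131 with WT, 3.59-fold lower (2.47 to 5.35), and the other libraries held 102 to 135. The remaining 17 SR and TRA2 genes lay within 2-fold. SNW1, a subunit of the catalytic spliceosome, had 23 counts with WT_K118R and 69 with WT, with 17 in PMSCV and 67 in S_PXT1. It was the only one of 21 spliceosome core genes past 2-fold. MBNL2, a splicing regulator of the muscleblind family singled out once its values were known, had 22 with WT_K118R and 51 with WT. None of 9 cleavage and polyadenylation genes, 8 splicing kinases or 15 helicases passed 2-fold. Lists this short could hold none at the 6.1% share of all genes.

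MATR3, a nuclear matrix RNA-binding protein, is on 2 rows that went opposite ways. On 1 row it had 15 counts with WT_K118R and 545 with WT, and on the other 244 with WT_K118R and 18 with WT. The rows overlap on chromosome 5 and summed to 259 counts with WT_K118R and 563 with WT, 2.14-fold lower (1.85 to 2.49). The sums in S_PXT1_K118R, S_PXT1 and PMSCV were 237, 280 and 368. SENP3-EIF4A1, which spans a pair of adjacent genes, had 0 counts with WT_K118R and 66 with WT. SENP3, a protease that removes SUMO, had 38 with WT_K118R and 5 with WT, and EIF4A1 54 with WT_K118R and 31 with WT. All models of that locus together held 103 counts with WT_K118R and 107 with WT. RBM14-RBM4 had 13 counts with WT_K118R and 63 with WT, but the locus summed to 606 with WT_K118R and 615 with WT. In all, 18 called rows shared a locus with other counted models, and on summing 9 kept a 2-fold difference in the same direction, 8 lay within 2-fold and 1, a MATR3 row, was opposite.

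Of the alpha tubulins TUBA1A was far lower and TUBA4A higher. TUBA1A had 12 counts with WT_K118R and 640 with WT, 52.6-fold lower (29.9 to 102), and 383 to 578 in the other libraries. Its near-identical paralogs TUBA1B and TUBA1C had 1089 and 5043 counts with WT_K118R, and 1345 and 5332 with WT. The 3 genes together gave 6144 counts with WT_K118R and 7317 with WT, 1.18-fold lower (1.14 to 1.22). TUBA4A, a more distant alpha tubulin, had 49 counts with WT_K118R and 20 with WT, 2.48-fold higher (1.45 to 4.41). The authors' treatment of reads shared between such copies is not stated.

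Ubiquitin and SUMO genes held 3 higher and 1 lower of 52, a share near the 6.1% of all genes. Their median log2 ratio was -0.01. SUMO2, a ubiquitin-like modifier, had 90 counts with WT_K118R and 9 with WT, 10.1-fold higher (5.11 to 22.9), and 64 to 79 in the other libraries, so WT was low. Summed with its pseudogene models SUMO2 was 6.33-fold higher (3.72 to 11.5). UBE2G1, a conjugating enzyme, had 67 with WT_K118R and 27 with WT, 2.51-fold higher (1.59 to 4.09), with 10 to 17 elsewhere. UBE2W, which attaches ubiquitin to amino termini, had 5 counts with WT_K118R and 37 with WT, 7.30-fold lower (2.86 to 23.8), with 4 in S_PXT1_K118R and 34 in S_PXT1. With STAU2, which shares its locus, UBE2W was 2.79-fold lower. USP24, a deubiquitinase at 0 in both S_PXT1 libraries, had 28 with WT_K118R and 14 with WT. None of 13 proteasome genes passed 2-fold, and a list this short could hold none at the share of all genes. NFE2L1, which drives transcription of proteasome genes and was singled out once its values were known, had 111 counts with WT_K118R and 40 with WT, 2.81-fold higher (1.94 to 4.14). The other libraries held 16 to 27 counts of NFE2L1.

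Signalling genes differed singly. NFKBIA, the inhibitor that holds NF-kB in the cytoplasm, had 49 counts with WT_K118R and 3 with WT, 16.6-fold higher (5.34 to 83.0). It had 0, 104 and 80 with S_PXT1_K118R, S_PXT1 and PMSCV, so WT and S_PXT1_K118R were the low libraries. MAP3K7, the kinase TAK1 upstream of NF-kB and p38, had 3 counts with WT_K118R and 44 with WT, 14.5-fold lower (4.64 to 72.9), against 31 to 39 elsewhere. No other of the 13 MAP kinase and PI3K genes passed 2-fold, a share near the 6.1% of all genes. GRK2, a kinase of G protein-coupled receptors, had 67 counts with WT_K118R and 13 with WT, 5.22-fold higher (2.86 to 10.3), and 2 to 5 elsewhere. ARHGEF1, a guanine nucleotide exchange factor, had 38 with WT_K118R and 6 with WT, and HIPK3, a nuclear kinase, 49 with WT_K118R and 13 with WT. BTK, the B cell receptor kinase, had 11 counts with WT_K118R and 29 with WT, with 10 in PMSCV and 28 in each S_PXT1 library.

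Genes of the interleukin-3 pathway were few on these models. Of its 28 genes, 5 reached the mean of 20 counts. STAT5B, the STAT of interleukin-3 signalling, had 52 counts with WT_K118R and 48 with WT, and STAT3 30 with WT_K118R and 29 with WT. JAK2 had 0 counts in all 5 libraries. Of survival genes BCL2L1, which encodes BCL-XL, had 90 counts with WT_K118R and 89 with WT, BCL2 61 with WT_K118R and 46 with WT, and MCL1 31 with WT_K118R and 18 with WT. All 3 lay within 2-fold.

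Transport and traffic genes differed at SLC7A5, the large neutral amino acid transporter. It had 72 counts with WT_K118R and 6 with WT, 12.2-fold higher (5.32 to 34.2). S_PXT1_K118R and S_PXT1 held 62 and 63 counts of SLC7A5 and PMSCV 11, so WT lay nearest to the vector. EHD4, an ATPase of endocytic recycling, had 126 counts with WT_K118R, 24 with WT, 117 and 108 in the S_PXT1 libraries and 10 in PMSCV. It was 5.32-fold higher with WT_K118R than with WT (3.42 to 8.61). AP2A1, a subunit of the clathrin adaptor AP-2, had 5 counts with WT_K118R and 42 with WT, 8.29-fold lower (3.28 to 26.8), and 29, 36 and 4 in S_PXT1_K118R, S_PXT1 and PMSCV. ARCN1, a subunit of the COPI coat, had 31 with WT_K118R and 11 with WT. SRP72, a subunit of the signal recognition particle, had 39 with WT_K118R and 10 with WT, and GAPVD1, an exchange factor for RAB5, 46 with WT_K118R and 12 with WT. SLC25A5 and SLC25A4, ADP/ATP carriers of the inner mitochondrial membrane, had 24 and 25 counts with WT_K118R and 91 and 59 with WT, 3.74-fold (2.36 to 6.14) and 2.33-fold lower (1.44 to 3.88). SLC25A4, SLC25A5 and SLC25A6 together had 56 counts with WT_K118R and 161 with WT. IREB2, which binds iron-responsive elements in mRNAs, had 15 with WT_K118R and 31 with WT.

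A few more genes stand among the highest and lowest ratios. TTC7B, a scaffold of a phosphatidylinositol kinase, had 40 counts with WT_K118R and 0 with WT, 13.5-fold higher against the floor (10.5 or more). It also had 0 counts with S_PXT1 and 15 with each of S_PXT1_K118R and PMSCV. CGGBP1, which binds CGG repeats, had 60 counts with WT_K118R and 7 with WT, 8.69-fold higher (3.97 to 22.5), and 46 to 56 elsewhere. FAM222B had 43 with WT_K118R and 8 with WT, with 32 to 64 elsewhere. NUDT3, a hydrolase of inositol pyrophosphates, had 11 with WT_K118R and 45 with WT, with 31 to 45 elsewhere. MACO1 had 16 with WT_K118R and 61 with WT.

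Many lists of large machineries held no gene past 2-fold. Of the 64 function lists, 48 had at least 5 genes at the mean of 20 counts. No gene passed 2-fold in 24 of those. With 6.1% past 2-fold over all genes, short lists could hold none at that share, so such zeros say little. The median log2 ratio lay within 0.1 of 0 for 32 of the 48 lists. The 49 cytosolic ribosomal protein genes had 0 members past 2-fold, but 37 lay below 0 and 12 above, with a median log2 ratio of -0.20. Of all 1787 genes 893 lay below 0. RPL3 had 95 counts with WT_K118R and 142 with WT, and RPLP0 3022 with WT_K118R and 3587 with WT. The summed counts of the 49 genes were 1.15-fold lower (1.11 to 1.19). The median was -0.16 for the 10 protein genes of mitochondrial DNA, with 0 past 2-fold. Initiation factors (30 genes), actin cytoskeleton (35), nuclear transport (23), ER chaperones and translocon (24), cytosolic chaperones (22), phosphatases and 14-3-3 proteins (24) and RAB GTPases (11) also had 0 past 2-fold. The 9 glycolysis genes had a median of 0.22, with GAPDH at 180 counts with WT_K118R and 143 with WT.

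**Figure D3:**
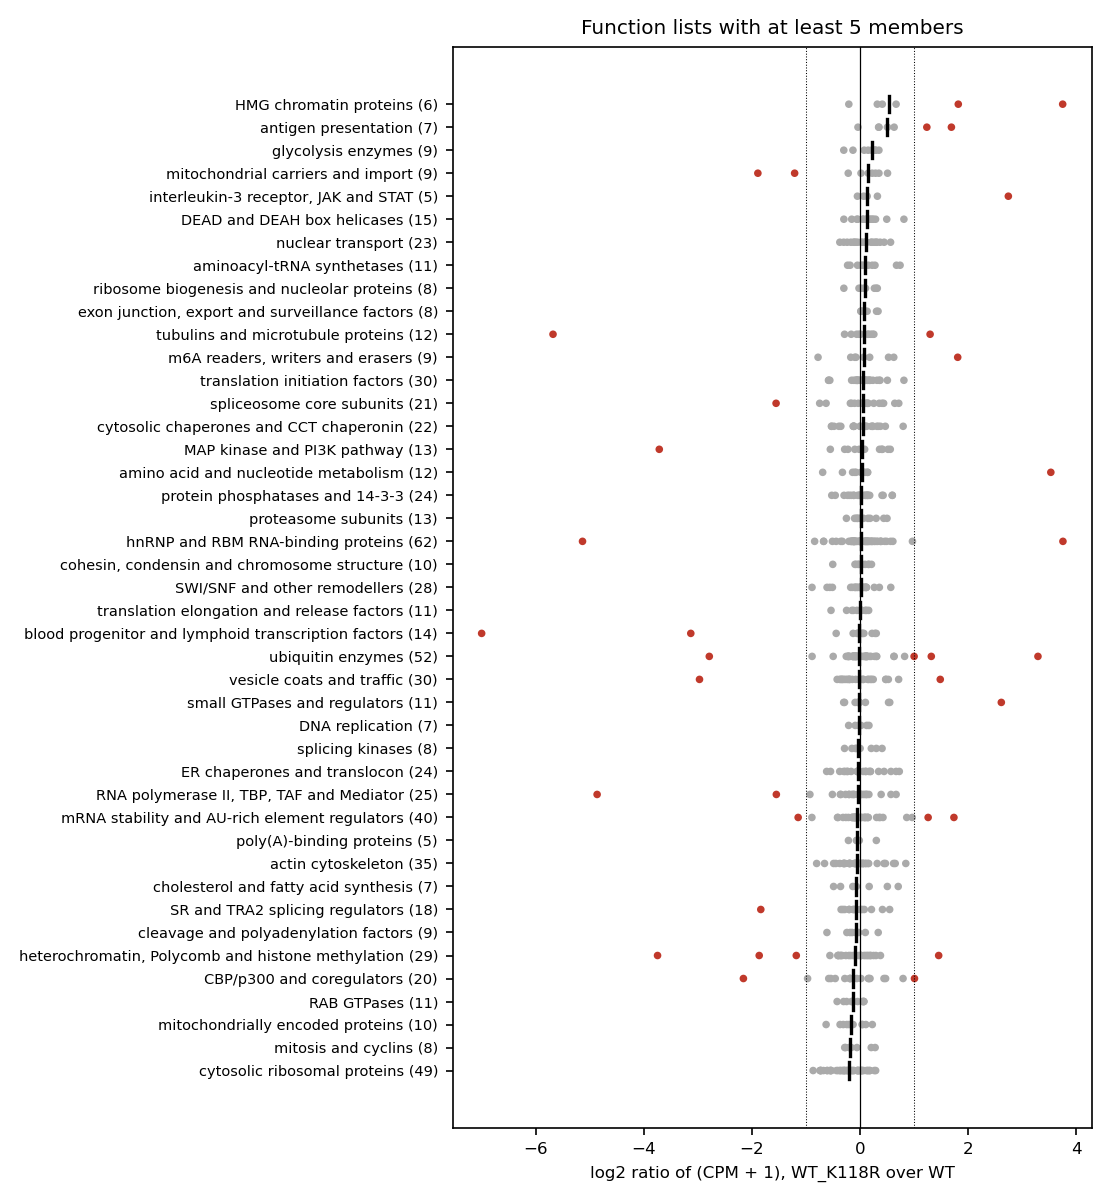
Each row is a function list with at least 5 genes, tissue lists left out, and each point is a gene at its log2 ratio of WT_K118R over WT. The black tick is the list median, the number in parentheses the genes, red points lie beyond 2-fold, and most lists hold at most 1 or 2 such points around a median near 0.

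Genes of differentiated tissues made up much of the set absent with S_PXT1. Of the 58 genes absent from both S_PXT1 libraries, 28 are on a tissue list and 30 are on no tissue list. Of the 28, 6 were higher and 11 lower with WT_K118R, beside 6.1% past 2-fold over all genes. Some of the 28 reached the mean of 20 counts only through WT, as KRT4 did, or only through WT_K118R, as LAMA3 did. The filter fixed such genes as past 2-fold, so this tally is not a test. The 58 genes summed to 2109 counts with WT_K118R and 3078 with WT, and to 16, 19 and 2049 in S_PXT1_K118R, S_PXT1 and PMSCV. The 28 are genes of squamous epithelium, prostate, antibody-producing cells, muscle and stroma, which a pro-B cell line does not normally express. The source of these reads was not tested. Whether they came from the labelled cells is not known, and that limits every ratio given here. Fewer cells of a type and less RNA per cell cannot be told apart here, and neither can an effect of the substitution and any other difference between the libraries.

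Keratins differed in both directions, and the cornified envelope and squamous list was lower in 6 of its 7 genes. KRT13 and KRT4, the keratin pair of the suprabasal layers of moist epithelia, had 1 and 0 counts with WT_K118R and 266 and 262 with WT. PMSCV held 9 and 14. KRT13 was 262-fold lower (46.7 to 10406) and KRT4 86.2-fold lower against the floor (69.6 or more). CRNN, or cornulin, of the same layers had 0 counts with WT_K118R and 69 with WT, 22.7-fold lower against the floor (18.0 or more). SPRR3, a cornified envelope precursor, had 1 with WT_K118R and 125 with WT, a 123-fold difference (21.7 to 4910). PPL, the envelope and desmosome linker periplakin, had 0 with WT_K118R and 41 with WT, 13.5-fold lower against the floor (10.5 or more). EMP1, an epithelial membrane protein, had 12 with WT_K118R and 72 with WT, and S100A9, a calcium-binding protein of neutrophils and epithelia, 5 with WT_K118R and 40 with WT. ANXA1, a phospholipid-binding protein, had 18 counts with WT_K118R and 99 with WT, 5.43-fold lower (3.26 to 9.53), and 1 and 7 in S_PXT1_K118R and S_PXT1. All 7 cornified envelope and squamous genes at the mean of 20 counts lay below 0 on the log2 scale and 6 passed 2-fold, beside 6.1% of all genes. CRNN, PPL, SPRR3, S100A9 and EMP1 reached that mean only through WT, so the filter fixed them as lower, and this tally is not a test. SFN, the seventh, had 21 counts with WT_K118R and 23 with WT. Over all matched genes the list summed to 143 counts with WT_K118R and 928 with WT, 6.40-fold lower (5.36 to 7.69).

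The basal keratin KRT14, the wound keratins KRT6A and KRT16 and the laminin chain gene LAMA3 were higher. KRT14, the keratin of the basal layer, had 135 counts with WT_K118R and 28 with WT, 4.89-fold higher (3.23 to 7.63), and 36 in PMSCV. Its partner KRT5 had 161 with WT_K118R and 106 with WT, 1.54-fold higher (1.20 to 1.99). KRT6A and KRT16, a pair induced in wounded and fast-growing epidermis, had 176 and 38 counts with WT_K118R, and 83 and 12 with WT. They were 2.15-fold (1.65 to 2.82) and 3.21-fold higher (1.64 to 6.75). KRT6B and KRT17 had 23 and 32 counts with WT_K118R and 19 and 27 with WT. LAMA3, a chain of the laminin that anchors basal cells to the basement membrane, had 44 counts with WT_K118R, 8 with WT and 14 with PMSCV, 5.57-fold higher than with WT (2.60 to 13.7). Of 8 keratins 3 were thus higher and 2 lower, beside 6.1% past 2-fold over all genes. All 55 matched keratins summed to 618 counts with WT_K118R and 882 with WT. Without KRT13 they held 617 with WT_K118R and 616 with WT, a ratio of 1.02 (0.906 to 1.14). The desmosome genes DSP and PERP had 54 and 30 counts with WT_K118R and 58 and 22 with WT.

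**Figure D4:**
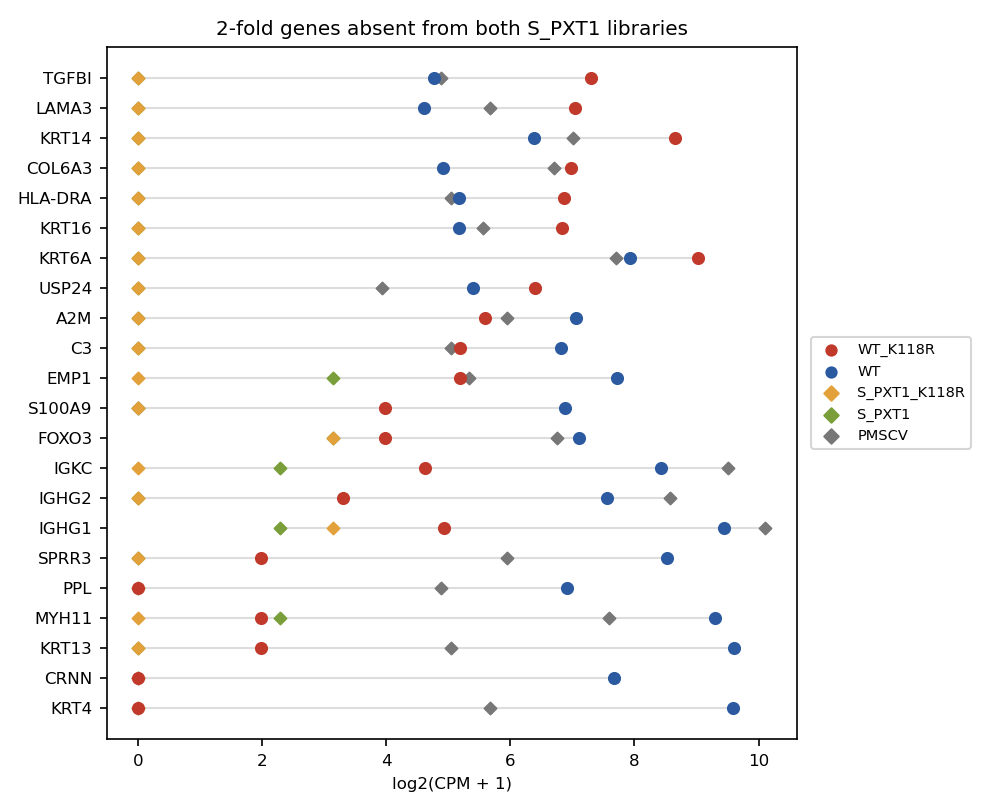
Of the genes past 2-fold among those absent from both S_PXT1 libraries, 22 are shown by library on a log2(CPM + 1) axis, highest ratio on top. KRT14, KRT6A and LAMA3 are highest in WT_K118R, KRT4, KRT13, CRNN and SPRR3 are highest in WT and at 0 or 1 count in WT_K118R, and the 3 immunoglobulin genes are highest in PMSCV.

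The 3 antibody genes and MYH11 were lower. IGHG1 and IGHG2, heavy chains of IgG, had 10 and 3 counts with WT_K118R and 238 and 64 with WT, and PMSCV held 310 and 107. IGHG1 was 23.5-fold lower (12.5 to 49.6) and IGHG2 21.1-fold (6.89 to 105). IGKC, the kappa light chain, had 8 counts with WT_K118R and 117 with WT, 14.4-fold lower (7.09 to 34.2). These were the only immunoglobulin genes at the mean of 20 counts, which they reached only through WT, so the filter fixed them as lower. All matched immunoglobulin genes summed to 41 with WT_K118R and 642 with WT. MYH11, the myosin heavy chain of smooth muscle, had 1 count with WT_K118R, 215 with WT and 54 with PMSCV, a 212-fold difference (37.7 to 8418). TPM1, a tropomyosin found in many cells, had 188 with WT_K118R and 178 with WT. The muscle list summed to 270 counts with WT_K118R and 688 with WT, 2.51-fold lower (2.18 to 2.91). Without TPM1 it held 82 with WT_K118R and 510 with WT, a ratio of 0.163 (0.127 to 0.206), and over its genes absent with S_PXT1 the ratio was 0.111. C3 and A2M, secreted proteins of plasma that were named after their values were seen, were lower too, with 12 and 16 counts with WT_K118R and 38 and 45 with WT.

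Several stromal and antigen presentation genes were higher. FN1, or fibronectin, had 204 counts with WT_K118R and 60 with WT, 3.45-fold higher (2.57 to 4.68), and 74 in PMSCV, 3 in S_PXT1_K118R and 10 in S_PXT1. COL6A3, a chain of collagen VI, had 42 with WT_K118R and 10 with WT, 4.26-fold higher (2.10 to 9.51), and POSTN, the matrix protein periostin, 58 with WT_K118R and 27 with WT, and 7 and 22 in S_PXT1_K118R and S_PXT1. COL1A1 and COL3A1 had 236 and 202 counts with WT_K118R and 142 and 155 with WT, within 2-fold, and 73 to 100 in the S_PXT1 libraries. DCN, the proteoglycan decorin, went the other way with 21 counts with WT_K118R and 61 with WT, 2.87-fold lower (1.72 to 4.96), and 5 in each S_PXT1 library. Of 12 collagen, matrix and fibroblast genes 3 were higher and 1 lower, and the list median was 0.68. Over all genes 6.1% passed 2-fold, and 9.28% of those averaging 20 to 50 counts. The matrix list summed to 1396 counts with WT_K118R and 1011 with WT, 1.40-fold higher (1.29 to 1.52). Over the matrix genes absent with S_PXT1 the sums were 234 with WT_K118R and 199 with WT, a ratio of 1.19 whose interval held 1 (0.982 to 1.45). TGFBI, a matrix protein induced by TGF-beta, had 53 with WT_K118R and 9 with WT, 5.97-fold higher (2.92 to 13.8). HLA-DRA and HLA-B, chains of class II and class I molecules, had 39 and 40 counts with WT_K118R and 12 and 17 with WT, 3.29-fold (1.69 to 6.91) and 2.38-fold higher (1.32 to 4.49). HLA-B had 4 and 6 in S_PXT1_K118R and S_PXT1. B2M had 95 with WT_K118R and 62 with WT, and CD74 58 with WT_K118R and 46 with WT. Of 7 antigen presentation genes 2 were higher and 0 lower, beside the same 6.1% of all genes, and the list median was 0.51.

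Prostate genes did not follow either pattern. KLK3, which encodes prostate-specific antigen, had 71 counts with WT_K118R and 62 with WT, and TMPRSS2 and FOLH1 had 32 and 22 with WT_K118R and 30 and 29 with WT. Of 6 prostate genes NDRG1, a stress-responsive gene of many epithelia, was the only one past 2-fold, beside 6.1% of all genes. NDRG1 had 84 counts with WT_K118R and 23 with WT (3.70-fold higher, 2.31 to 6.15), and 4 and 0 in S_PXT1_K118R and S_PXT1. The list summed to 342 counts with WT_K118R and 316 with WT, a ratio of 1.10 (0.938 to 1.28). PMSCV held 298. Over the prostate genes absent with S_PXT1, which leaves out NDRG1, the sums were 258 with WT_K118R and 293 with WT, a ratio of 0.892 (0.752 to 1.06). Vessel, plasma and gland genes summed to 48 counts with WT_K118R and 135 with WT, and tissue immune cell genes to 75 with WT_K118R and 55 with WT.

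**Figure D5:**
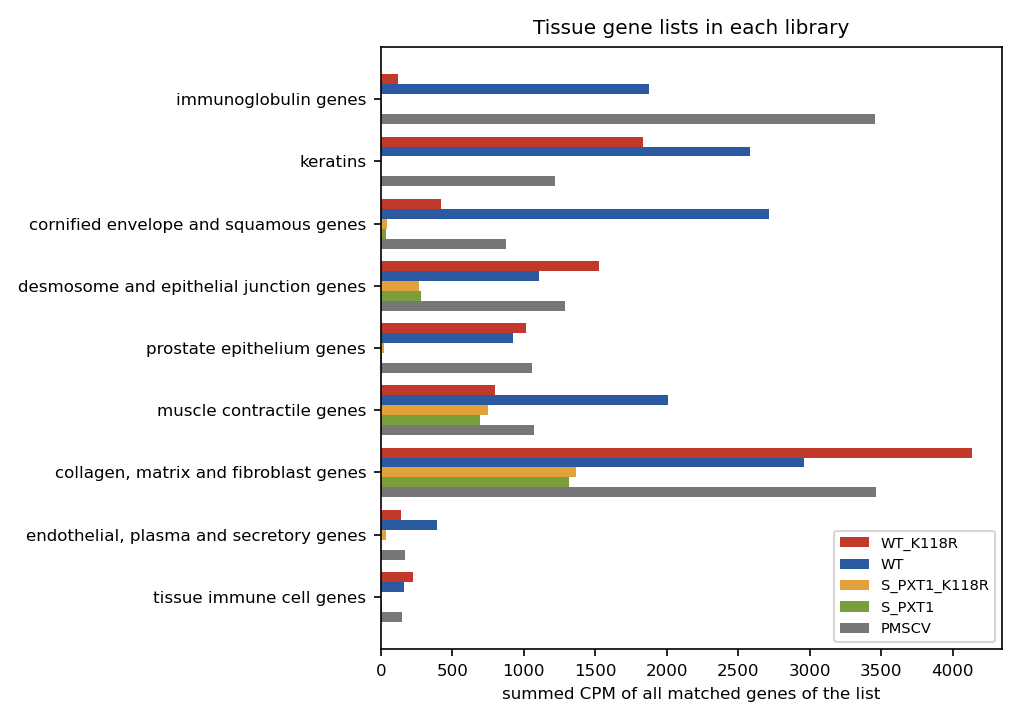
Bars give the summed CPM of all matched genes of each tissue list in the 5 libraries, with WT_K118R above WT. Squamous, immunoglobulin and muscle sums are lower with WT_K118R than with WT, the matrix sum is higher, the prostate sums are close, and immunoglobulin, keratin and prostate sums are near 0 in both S_PXT1 libraries.

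Set beside the other 3 libraries, sometimes WT_K118R and sometimes WT stood apart. WT_K118R lay at least 2-fold below each of the other 4 libraries for 13 genes and above them for 19. WT lay 2-fold below each of the others for 10 genes and above them for 14. Those low in WT_K118R included SPI1, TAF9, TUBA1A, CITED2, KDM2A, SRSF7, MAP3K7, NUDT3, BCL7C, QRICH1 and KMT2C. Those low in WT included YTHDF3, SUMO2, SLC7A5, CGGBP1, SRP72, NUDCD3, UHMK1 and PTPN12. QRICH1, NUDCD3, UHMK1 and PTPN12 were named after their values were seen. Of the 42 lower genes counted with S_PXT1, WT was nearer to PMSCV than WT_K118R for 28, and of the 43 higher genes WT_K118R was nearer for 25. In both sets the library with more of the gene was thus more often the nearer one. The genes were picked for a gap between WT_K118R and WT, so these counts are not a test.

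The substitution was also made in the S_PXT1 construct, and that pair shares no library with this one. By the same rule 1356 genes entered there, and 5.46% passed 2-fold, 2.36% higher with S_PXT1_K118R and 3.1% lower. Of the 53 genes higher with WT_K118R, 29 entered, and 3 of these were higher, 4 lower and 22 within 2-fold. The 3 were HMGB2, CNOT9 and SENP3. Of the 56 lower genes 27 entered, and 6 were lower, 2 higher and 19 within 2-fold. The 6 were CITED2, QRICH1, SNW1, NSD3, RNF114 and the joined model RBM14-RBM4. Summed over the models of their loci, SENP3 and RBM14-RBM4 lay within 2-fold in the WT pair. SENP3's locus held 103 counts with WT_K118R and 107 with WT, and that of RBM14-RBM4 606 and 615. CITED2 had 403 counts with S_PXT1_K118R and 1291 with S_PXT1, 3.18-fold lower, beside 133 with WT_K118R and 602 with WT. SPI1, TAF9, TUBA1A and KDM2A lay within 2-fold in that pair.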

How the data were processed

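RNA of 5 Ba/F3 libraries, 1 per group, was sequenced. The authors deposited 1 table of raw read counts per gene and FPKM, per the file headers. Tools listed by the submitters' processing notes are HISAT2 2.2.1, cutadapt 1.9 and FastQC. Neither the counter nor its strand setting, the genome build or the annotation is stated there. Deposited FPKM carried the same information as the counts, rescaled by gene length and library, to within 0.01 on the log2 scale in 99.99% of the values compared. Counts were therefore used, with FPKM tried as another scale. Every value column belonged to a library.

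Totals ran from 250409 to 351693 counts. A single count was worth 2.96 CPM in WT_K118R and 2.92 in WT, and the floor of 3 counts 8.89 and 8.77 CPM. Sizes were scaled by TMM over the 5 libraries (edgeR 4.0.16, R 4.3.3). Log2 ratios used CPM with a pseudocount of 1, which understates low genes. Folds used scaled counts without it. Intervals are exact (Clopper-Pearson) at 95%. Ratio and interval code was tested on simulated data. No test between groups was possible with 1 library each.

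The genes, the 64 function lists (3815 symbols matched) and the 2-fold rule were chosen with earlier results of these data known. Named genes were, among symbols on 1 row (which leaves out MATR3), the 15 highest and 15 lowest ratios outside the genes absent from both S_PXT1 libraries, the 10 highest and 10 lowest at a mean of at least 100 counts, the 8 highest and 8 lowest absent genes, and up to 4 genes past 2-fold per list. Further genes were named to describe a list or a neighbour after their values were seen. Alternatives were other scalings (DESeq2 1.42.0 among them), filters, pseudocounts, folds, FPKM and summed gene models. Some genes that met these rules are not reported here.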

Additional observations from a re-analysis of the deposited data

Results flagged for a closer look

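Some genes past 2-fold in both K118R pairs went opposite ways in the WT and S_PXT1 constructs, with both counting intervals excluding 1. Each group held 1 library, so the difference between the pairs was not tested. NFKBIA had a log2 ratio of 3.90 over WT, 49 counts against 3, and had 0 counts with S_PXT1_K118R against 104 with S_PXT1. CBX1 had a log2 ratio of 1.46 over WT and had 68 counts with S_PXT1_K118R against 181 with S_PXT1. ZCCHC2 had a log2 ratio of 1.54, 104 counts with WT_K118R against 36 with WT, and 29 with S_PXT1_K118R against 73 with S_PXT1. SLC25A5 had a log2 ratio of -1.89 over WT and 63 counts with S_PXT1_K118R against 10 with S_PXT1. UBE4A, a ubiquitin ligase, had a log2 ratio of -1.25, 18 counts with WT_K118R against 44 with WT, and 31 with S_PXT1_K118R against 14 with S_PXT1. AL589666.1 had a log2 ratio of 1.33, 50 counts with WT_K118R against 20 with WT, and 23 with S_PXT1_K118R against 53 with S_PXT1. Summed with the models it overlaps, AL589666.1 lay within 2-fold in the WT pair, at a log2 ratio of 0.24.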

How the results depend on the processing

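The counts of 53 higher and 56 lower genes stayed within 1.5 times under 3 other scalings, centring and both pseudocounts. So they did with FPKM (52 and 51), summed gene models (50 and 51) and summed near copies (51 and 54, chosen after seeing the data). FPKM is the counts rescaled by gene length and library, so its result was nearly fixed in advance. Genes at 0 in either library were left out there, among them 5 called genes at 0 in WT_K118R and 1 in WT. Leaving out genes absent from both S_PXT1 libraries also kept the counts of higher and lower genes within 1.5 times (43 and 42). The limit to intervals that exclude 1 removed none, which the filter and the 2-fold rule nearly fix in advance. The counts followed the filter and the threshold. A mean of at least 10, 50 or 100 counts gave 129, 15 and 6 higher and 140, 18 and 10 lower genes, and no filter 3094 and 2462. At 1.5-fold 129 were higher and 126 lower, and at 3-fold 30 and 33. Genes on any list, 28 higher and 33 lower, moved in the same way, to 59, 9 and 6 higher and 73, 16 and 10 lower at those means, and to 428 and 361 without a filter. With absence set at 0 counts, 9 genes were lower in place of 14.

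Of the 83 named genes none changed direction under another scaling. SENP3 did when models were summed, to a log2 ratio of -0.036, and the keratin sum had a ratio of 1.02 without KRT13. KRT5 had as many counts over WT_K118R and WT, and leaving it out instead was not tried. The muscle sum moved to a ratio of 0.163 without its most counted gene and to 0.111 over genes absent with S_PXT1. Over such genes the matrix sum was at 1.19 and the prostate sum at 0.892. The histone methylation median moved to 0.12 at a mean of at least 50 counts. No paired analysis was possible because each group held 1 library. At 1 library a group, counting intervals do not cover variation between cultures.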
